A study of Homo sapiens with 24 samples.

Results

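The genes of the cyclin-dependent kinase inhibitors were followed through 2 breast cancer lines that lack the oestrogen receptor. The 8 genes were a list of names with no cut on a measured value, though earlier results of these data were known when it was made. They were the CIP/KIP genes CDKN1A, CDKN1B and CDKN1C, the INK4 genes CDKN2A, CDKN2B, CDKN2C and CDKN2D, and CDKN3, of neither family. They are 8 of the 59610 gene symbols in the table of counts. MDA-MB-231 and MDA-MB-453 are established human cell lines, both labelled wild-type, and each had been exposed for 5 days to DMSO alone (the vehicle), to abemaciclib at 500 nM, to fulvestrant at 5 nM, or to both drugs together (the combination). Abemaciclib inhibits CDK4 and CDK6, and fulvestrant degrades the oestrogen receptor. Each of the 8 groups held 3 biological replicates, which gave 24 libraries of 3′ RNA-seq. The 2 lines were grown in different media, so line and medium cannot be told apart in any comparison between them, and each line stands for 1 tumour only.

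Cyclin-dependent kinases drive the cell cycle when bound to a cyclin, and the inhibitor proteins hold them back. INK4 proteins bind CDK4 and CDK6 themselves and keep D-type cyclins away, which leaves the retinoblastoma protein (Rb) unphosphorylated, the state that abemaciclib also favours. CIP/KIP proteins bind assembled cyclin-kinase complexes, above all those of CDK2, and among them p27, from CDKN1B, is set largely by protein turnover. CDKN3 is a phosphatase that acts on the activating phosphate of CDK2 and whose mRNA is known to peak late in the cycle of dividing cells. The measurements here are of mRNA and not of protein.

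Library totals ranged from 2873558 to 4158762 counts. Levels are given as CPM, the count divided by the library total and scaled to 1000000 counts, and a group total of 0 counts allows a level of up to 0.255 to 0.300 CPM (3 counts over the 3 libraries, counting error only). Line identity was checked with markers. VIM, CD44, AXL and CAV1, mesenchymal genes of MDA-MB-231, were at 0 counts throughout the 12 MDA-MB-453 libraries, and EPCAM, an epithelial marker of MDA-MB-453, stood at 353 to 411 CPM there and at 0 to 1.92 CPM in the 12 of MDA-MB-231. Mitochondrially encoded genes took a larger share of the counts in abemaciclib-treated libraries, on average 12.2% against 8.83% under DMSO in MDA-MB-231 and 23.8% against 15.2% in MDA-MB-453. Leaving those genes out changed no call in the comparisons of abemaciclib with DMSO. The CPM levels depended on them more: of the group means of members above 0, 28 moved by more than the SD of the group and 28 did not.

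The promoters of the 4 members that fell under abemaciclib in MDA-MB-453 (below) are shown first, since their mRNAs moved together. RefSeq promoter entries (GRCh38.p14) were held for 7 of the 8 members, CDKN1C excepted, in 10 entries of 300 bases. The bases shown come before the RefSeq start of an entry and before its first base annotated as untranslated in that gene. The CDKN2C and CDKN2A stretches, and part of that of CDKN3, lie within the annotated span of the gene. Capitals mark the letters of the cell cycle genes homology region (CHR, TTTGAA, the core to which the DREAM repressor complex is known to bind) and of the CCAAT box (CCAAT, known to bind NF-Y), on either strand. The shown stretches are chr14:54396757-54396978 on the plus strand for CDKN3, chr1:50969995-50970244 on the plus strand for CDKN2C, chr19:10569060-10569229 on the minus strand for CDKN2D and chr9:21974867-21975107 on the minus strand for CDKN2A.
CDKN3: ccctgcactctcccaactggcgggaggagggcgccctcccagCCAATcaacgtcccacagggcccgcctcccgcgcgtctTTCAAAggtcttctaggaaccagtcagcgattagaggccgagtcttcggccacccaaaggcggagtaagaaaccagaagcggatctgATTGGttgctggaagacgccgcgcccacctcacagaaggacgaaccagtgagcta
CDKN2C: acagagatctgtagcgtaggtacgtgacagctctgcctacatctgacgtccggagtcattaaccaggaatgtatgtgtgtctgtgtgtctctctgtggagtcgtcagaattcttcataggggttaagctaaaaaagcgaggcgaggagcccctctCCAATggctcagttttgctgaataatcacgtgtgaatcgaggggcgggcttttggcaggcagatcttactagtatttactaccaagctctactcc
CDKN2D: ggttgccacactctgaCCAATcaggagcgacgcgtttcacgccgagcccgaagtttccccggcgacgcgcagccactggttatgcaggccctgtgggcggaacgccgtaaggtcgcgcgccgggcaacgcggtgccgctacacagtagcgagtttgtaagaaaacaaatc
CDKN2A: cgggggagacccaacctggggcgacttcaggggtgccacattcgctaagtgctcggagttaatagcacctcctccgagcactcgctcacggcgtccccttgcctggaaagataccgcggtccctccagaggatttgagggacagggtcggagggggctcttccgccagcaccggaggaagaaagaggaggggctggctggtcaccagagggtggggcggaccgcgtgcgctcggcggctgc

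In CDKN3 a CHR match began at position -170 from the RefSeq start and CCAAT matches at -208 and -83. Of the 3 entries of CDKN2C, the one shown had 1 CCAAT match, at -95, and the other two had none of these letters. CDKN2D had 1, at -234. Neither CDKN2A entry held any of these letters. CDKN1B, which did not pass the test in any treatment comparison, held 3 CCAAT matches, at -174, -50 and 30. Of 35116 promoters of the same length, 15.2% held the CHR letters and 34.6% the CCAAT letters. The 4 E2F sites searched (TTTGGCGC, TTTGCCGC, TTTCGCGC and TTTCCCGC), held by 3.31% of promoters, were not found in the windows of the members. Only these exact letters were searched, and shorter or variant E2F sites were not looked for. CHR and CCAAT letters do not overlap. A match is a stretch of letters and not a measured binding site.

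Against DMSO, abemaciclib lowered 4 of the 7 members that could be tested in MDA-MB-453 and 1 of the 6 in MDA-MB-231, and raised 0 in either line (quasi-likelihood test of edgeR, with a threshold of 0.05 on p values adjusted over the genes tested by the method of Benjamini and Hochberg). CDKN3 fell in both lines, while CDKN2A, CDKN2C and CDKN2D fell in MDA-MB-453. Over all genes, 36% of 11080 were called in MDA-MB-453, 19.4% as lower, and 33.7% of 11314 in MDA-MB-231, 16.9% as lower. CDKN1C in MDA-MB-453 and CDKN2A and CDKN2B in MDA-MB-231 had too few counts to pass the filter. The libraries are bulk RNA, so fewer cells expressing a gene and less RNA of it per cell cannot be told apart.

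**Figure D1:**
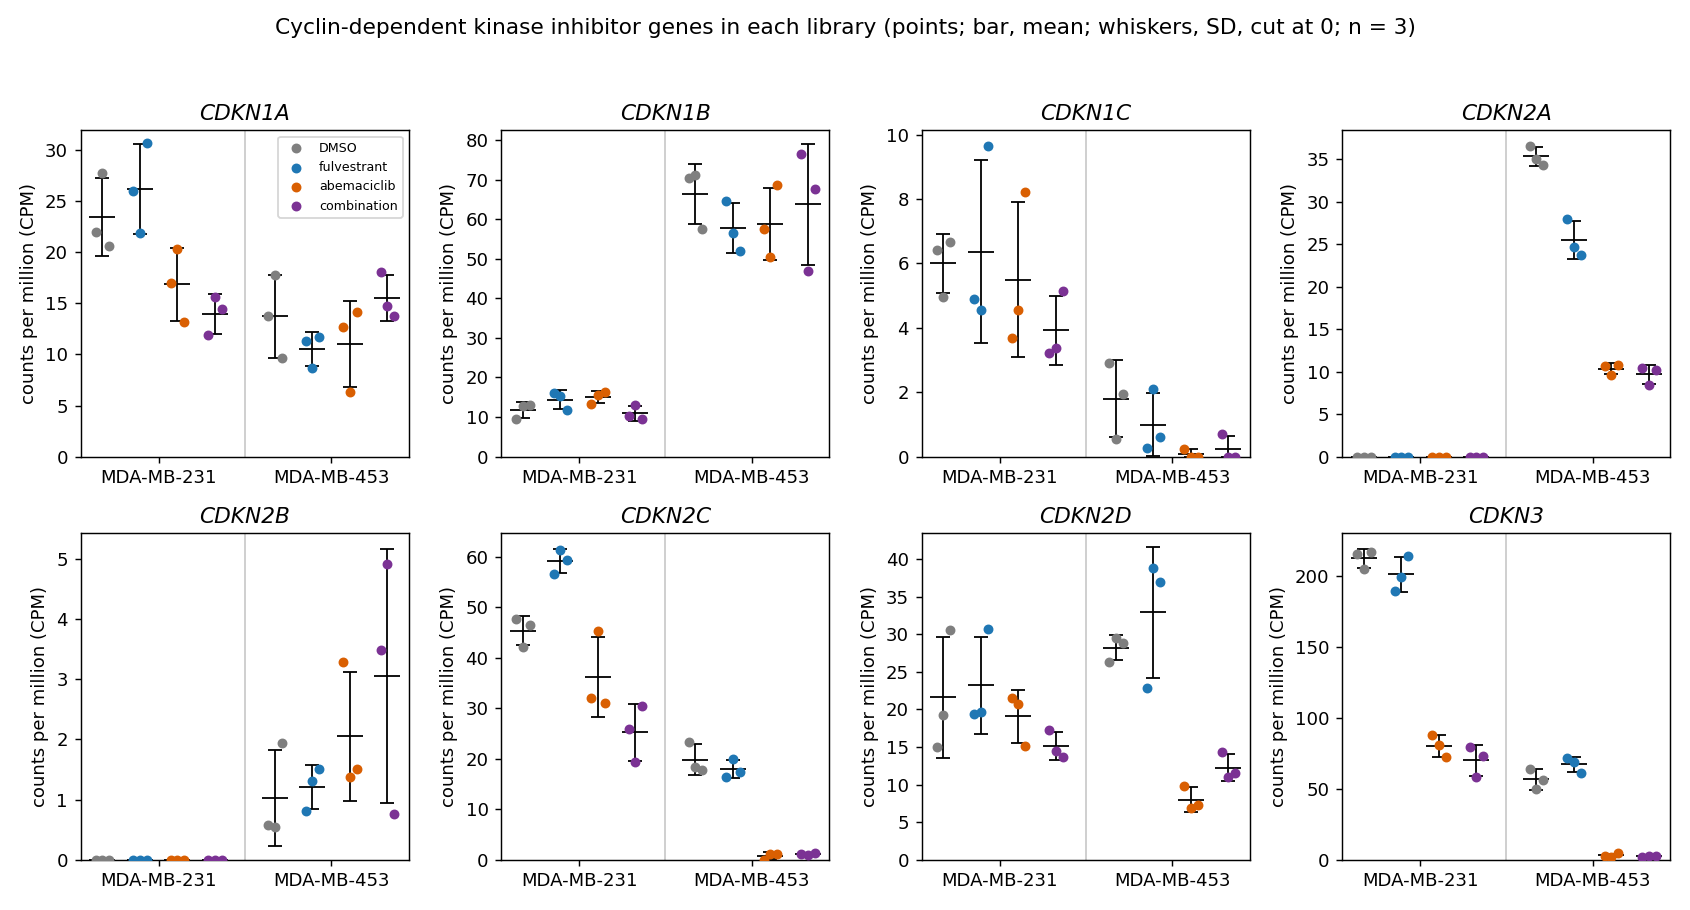
Level of each inhibitor gene in every library, in CPM (y axis, a scale of its own for each gene), by line and treatment (x axis). Points are libraries, bars are means and whiskers the SD of 3 libraries, ended at 0. CDKN3 is lower with abemaciclib, alone or combined, in both lines, and CDKN2A and CDKN2B are at 0 in all MDA-MB-231 libraries.

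CDKN3 (chromosome 14, 54396849-54420218, GRCh38, plus strand) fell in both lines. In MDA-MB-453 it stood at 64.0, 49.5 and 56.2 CPM in the DMSO libraries, which fell to 2.53, 1.92 and 4.51 CPM with abemaciclib. The groups were far apart, and the log2 fold change was -4.17 (SE 0.25, adjusted p = 1.39e-18). Treated counts were few in this line, at 10, 7 and 15 with abemaciclib and 5, 10 and 9 with the combination. CDKN3 passed the filter there only through its DMSO and fulvestrant libraries, so the fitted size of the fall is not firm. In MDA-MB-231 it went from 216, 205 and 217 CPM to 88.0, 80.5 and 72.1 CPM, for which the fitted change on the log2 scale was -1.40 (SE 0.12, adjusted p = 9.05e-13). Each abemaciclib library of MDA-MB-231 still held more CDKN3 than any DMSO library of MDA-MB-453. As ratios of summed counts the decline was 19.3-fold (95% interval 13.5 to 28.4) in MDA-MB-453 and 2.65-fold (2.45 to 2.88) in MDA-MB-231, where the intervals cover counting error only.

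The second comparison of libraries with and without abemaciclib, the combination against fulvestrant, shares no library with the first. In it CDKN3 fell from 71.9, 68.6 and 61.1 CPM to 1.74, 2.90 and 2.30 CPM in MDA-MB-453 (log2 fold change -4.77, SE 0.26, adjusted p = 3.86e-20). In MDA-MB-231 it fell from 190, 199 and 214 CPM to 79.5, 58.2 and 72.9 CPM (log2 fold change -1.53, SE 0.12, adjusted p = 5.75e-14). Groups without overlap made up 46.8% of all genes in MDA-MB-453 and 45.8% of those in MDA-MB-231 in this comparison. Fulvestrant alone left CDKN3 at a level whose libraries overlapped those of DMSO in each line.

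**Figure D2:**
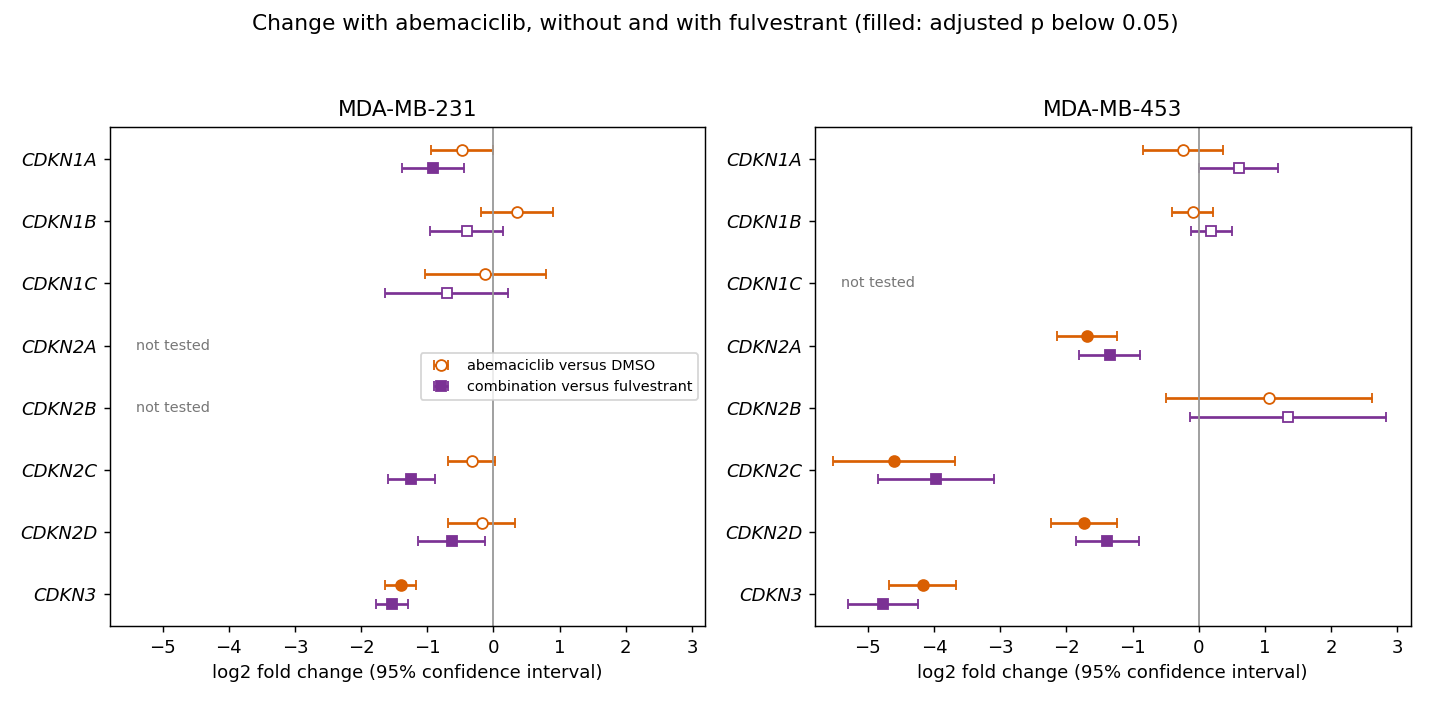
Log2 fold change of each inhibitor gene (x axis) with abemaciclib alone against DMSO (circles) and with the combination against fulvestrant (squares), a panel for each line. Bars are 95% confidence intervals, filled points passed an adjusted p of 0.05, and genes with too few counts are marked as not tested. CDKN2C lies at -4.60 and -3.97 in MDA-MB-453, and at -0.33 and -1.24 in MDA-MB-231.

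CDKN2C, which encodes the INK4 protein p18, gave the largest fitted fold change with abemaciclib against DMSO among the members tested in MDA-MB-453. The order was not firm. In the same line CDKN3 fell more than CDKN2C in the combination against fulvestrant (-4.77 against -3.97) and against DMSO (-4.58 against -4.17). CDKN2C lies on chromosome 1 at 50960745-50974634 on the plus strand. Its counts there were 80, 67 and 64 in the DMSO libraries and 0, 4 and 4 with abemaciclib. No library came near the other group (log2 fold change -4.60, SE 0.46, adjusted p = 2.18e-11), and the ratio of summed counts was 27.0 (95% interval 13.4 to 63.3). With fulvestrant present the counts went from 61, 76 and 58 to 3, 3 and 5 (log2 fold change -3.97, SE 0.44, adjusted p = 3.30e-10). Every library with abemaciclib, alone or combined, lay below the count minimum of the filter. CDKN2C thus entered the test in this line only through its DMSO and fulvestrant libraries. The counts show a fall, but its fitted size rests on few treated counts and is not firm. Of the exon bases of CDKN2C, 20.4% are shared with an unnamed annotated gene that the table of counts does not list.

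In MDA-MB-231 CDKN2C behaved otherwise. DMSO libraries held 47.6, 42.0 and 46.4 CPM and abemaciclib libraries 32.1, 45.3 and 31.0 CPM. Replicate 2 of the treated group lay within the range of the controls, and the difference did not pass the test (log2 fold change -0.33, SE 0.18, adjusted p = 0.150); without that library it did (-0.52, adjusted p = 0.0389, with a range of 0.0389 to 0.414 over all alternatives). Fulvestrant libraries held 56.6, 61.4 and 59.3 CPM, all above those of DMSO, and combination libraries 25.9, 19.2 and 30.4 CPM, all below those of abemaciclib, separations seen for 10.6% and 15.7% of all genes. The combination was lower than fulvestrant (log2 fold change -1.24, SE 0.18, adjusted p = 2.78e-07) and lower than DMSO (-0.85, SE 0.18, adjusted p = 2.03e-04). The step from DMSO to fulvestrant (0.39, SE 0.17, adjusted p = 0.634, unadjusted p = 0.027) and that from abemaciclib to the combination (-0.52, SE 0.18, adjusted p = 0.286, unadjusted p = 0.00635) did not pass. In the edgeR model, the interaction of the drugs, the change with abemaciclib in the presence of fulvestrant less that in its absence, was -0.91 (SE 0.25, unadjusted p = 6.86e-04) and missed the threshold (adjusted p = 0.0943). It passed without abemaciclib replicate 3 (adjusted p = 0.0315) or without fulvestrant replicate 1 (adjusted p = 0.0219), and over all alternatives the adjusted p ran from 0.0219 to 0.360.

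CDKN2D, which encodes the INK4 protein p19, lies on chromosome 19 at 10566460-10569059 on the minus strand. In MDA-MB-453 it measured 26.3, 29.6 and 28.8 CPM under DMSO and 9.87, 6.84 and 7.21 CPM under abemaciclib. The groups were well separated (log2 fold change -1.73, SE 0.25, adjusted p = 2.13e-07). It also fell from 22.9, 38.88 and 37.0 CPM with fulvestrant to 14.3, 11.0 and 11.5 CPM with the combination (-1.38, SE 0.24, adjusted p = 6.50e-06). The 3 combination libraries all lay above the 3 abemaciclib libraries, a separation seen for 19.6% of all genes, but that difference did not pass (0.52, SE 0.27, adjusted p = 0.368).

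In MDA-MB-231 the control libraries of CDKN2D were more spread, at 14.9, 19.3 and 30.6 CPM, and the abemaciclib libraries lay inside that range at 21.6, 20.7 and 15.1 CPM (log2 fold change -0.18, SE 0.25, adjusted p = 0.633). The fall from fulvestrant (19.4, 19.6 and 30.7 CPM) to the combination (17.2, 14.4 and 13.7 CPM) stood just past the threshold (-0.63, SE 0.25, adjusted p = 0.0446). Without fulvestrant replicate 3, the highest library, it was -0.36 (adjusted p = 0.355), and DESeq2 gave an adjusted p of 0.105 (range over all alternatives 0.0227 to 0.355), so the call rests on that library and on the choice of test.

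CDKN2A encodes 2 unrelated proteins, the INK4 inhibitor p16 and p14ARF, which guards p53 against MDM2. The gene lies on chromosome 9 at 21967752-21995301 on the minus strand, and its transcripts share their 3′ exons, so the count cannot separate them. In MDA-MB-453 the counts were 125, 128 and 124 under DMSO and 42, 35 and 36 under abemaciclib. Replicates were close within each group, and the log2 fold change was -1.69 (SE 0.22, adjusted p = 3.07e-08). With fulvestrant present the gene went from 28.0, 24.7 and 23.8 CPM to 10.4, 8.40 and 10.2 CPM (-1.34, SE 0.23, adjusted p = 6.41e-06). Fulvestrant libraries lay below all DMSO libraries (36.5, 35.03 and 34.3 CPM), where 16.8% of all genes showed no overlap, and the log2 fold change of -0.53 (SE 0.20, unadjusted p = 0.0129) did not pass (adjusted p = 0.198).

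All 12 MDA-MB-231 libraries held 0 counts of CDKN2A and 0 of CDKN2B, its neighbour, which encodes the INK4 protein p15 (chromosome 9, 22002903-22009305, minus strand). Homozygous loss of CDKN2A in MDA-MB-231 is textbook knowledge, but no DNA was measured here. Under DMSO, CDKN2A was at least 117.7-fold higher in MDA-MB-453 than in MDA-MB-231, with 377 counts against 0, and CDKN2B at least 3.43-fold, with 11 counts against 0 (3 counts over the group as the floor). The fall in CDKN2A with abemaciclib therefore has no counterpart to be compared with in MDA-MB-231.

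Other genes of the region were read as well. MTAP, whose enzyme salvages methionine and whose annotated end lies 30.1 kb from the 3′ end of CDKN2A, had 0 counts in the 12 MDA-MB-231 libraries and 560 in those of MDA-MB-453. KLHL9 had 0 and 1161 counts, ELAVL2 0 and 138, and FOCAD 9 and 667. MLLT3, beyond FOCAD, was counted in both lines (655 and 258). Within 3000 kb on each side, 75 genes of the table were found and 19 had any count, of which 7 were at 0 in MDA-MB-231 only and 3 in MDA-MB-453 only. The antisense gene CDKN2B-AS1 did not follow its neighbours: its counts were 2265 (MDA-MB-231) and 941 (MDA-MB-453), on average 53.4 and 22.0 CPM. It reaches 118.8 kb beyond the start of CDKN2B, and 15.3% of the exon bases of CDKN2A overlap its exons, while the strand setting of the counting is not given in the sources used here. CDKN2B-AS1 had a log2 fold change with abemaciclib of 0.04 (SE 0.16, adjusted p = 0.874) in MDA-MB-231 and -0.06 (SE 0.22, adjusted p = 0.874) in MDA-MB-453, where CDKN2A fell.

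**Figure D3:**
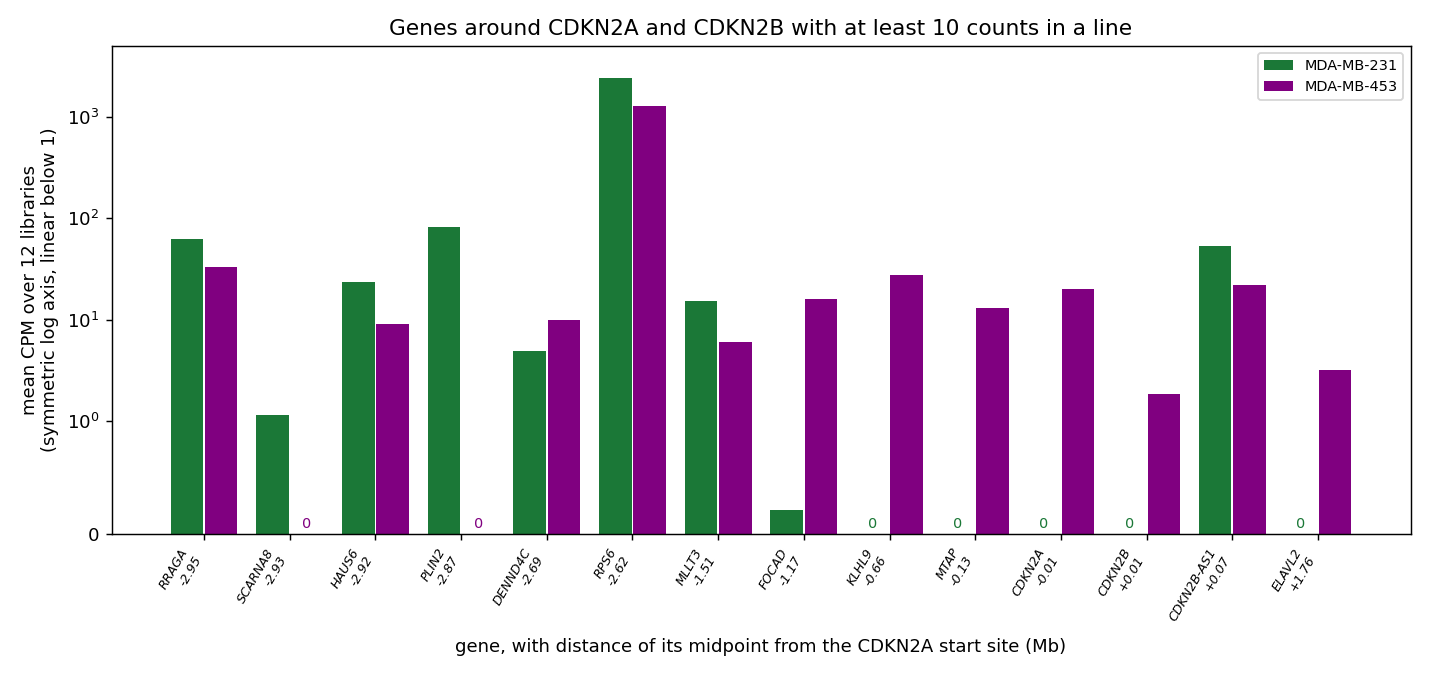
Mean level over 12 libraries in each line, in CPM (y axis, logarithmic above a linear stretch near 0), of genes within 3000 kb of the CDKN2A start with at least 10 counts in a line, in their order along the chromosome, evenly spaced, with the distance of the gene midpoint from that start printed under each (x axis, Mb). MTAP, KLHL9, CDKN2A, CDKN2B and ELAVL2 are at 0 in MDA-MB-231, and CDKN2B-AS1, which lies among them, is not.

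CDKN2B was sparse in MDA-MB-453, with 2, 2 and 7 counts under DMSO, 13, 5 and 5 under abemaciclib, 3, 5 and 5 under fulvestrant and 10, 17 and 3 under the combination. Its fitted change with abemaciclib was positive, but the groups overlapped and no comparison passed (abemaciclib 1.06, SE 0.77, adjusted p = 0.305, and combination against fulvestrant 1.35, SE 0.73, adjusted p = 0.150). CDKN2B passed the filter only through libraries with abemaciclib, alone or combined. A positive sign was therefore favoured and is no support for a rise.

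CDKN1A encodes p21, the classical p53-induced inhibitor, and lies on chromosome 6 at 36676460-36687337 on the plus strand. In MDA-MB-231 it stood at 21.9, 27.7 and 20.6 CPM under DMSO and at 17.0, 20.4 and 13.2 CPM under abemaciclib. The groups did not overlap, as in 44.1% of all genes, and the log2 fold change of -0.48 (SE 0.23, unadjusted p = 0.0443) did not pass (adjusted p = 0.107). The combination, at 11.9, 15.6 and 14.4 CPM, was lower than fulvestrant, at 26.0, 21.9 and 30.7 CPM (-0.91, SE 0.23, adjusted p = 0.00155). It was also lower than DMSO (-0.75, SE 0.23, adjusted p = 0.00999), though not past the threshold without DMSO replicate 2 (-0.60, adjusted p = 0.0753) or without combination replicate 1 (-0.65, adjusted p = 0.0550), and its adjusted p ranged from 0.00989 to 0.0753 over all alternatives.

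In MDA-MB-453 no change in CDKN1A was called. DMSO libraries held 13.7, 17.8 and 9.69 CPM and abemaciclib libraries 12.7, 6.29 and 14.1 CPM, with wide overlap (log2 fold change -0.24, SE 0.30, adjusted p = 0.576). Combination libraries, at 18.1, 14.8 and 13.8 CPM, all lay above fulvestrant libraries, at 11.3, 8.67 and 11.7 CPM, and this difference missed the threshold (0.60, SE 0.30, unadjusted p = 0.0485, adjusted p = 0.109). Between the lines, the change of CDKN1A with abemaciclib against DMSO differed by 0.25 (MDA-MB-453 minus MDA-MB-231, SE 0.38, adjusted p = 0.743). With the combination and fulvestrant libraries, an alternative chosen after the data were seen, that difference was 1.52 (SE 0.38, adjusted p = 0.00248), so it depends on which libraries are compared.

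CDKN1B encodes p27 and lies on chromosome 12 at 12685498-12722369 on the plus strand. No treatment moved it past the test. In MDA-MB-453 it measured 70.4, 71.2 and 57.6 CPM under DMSO and 57.4, 50.4 and 68.5 CPM under abemaciclib (log2 fold change -0.09, 95% interval -0.40 to 0.21, adjusted p = 0.680). In MDA-MB-231 it measured 9.45, 12.8 and 13.0 CPM and 13.3, 15.5 and 16.4 CPM (0.36, SE 0.27, adjusted p = 0.333). The treated libraries of MDA-MB-231 lay just above the controls, where 44.1% of all genes showed no overlap. With fulvestrant present the groups overlapped, at 16.2, 15.3 and 11.7 CPM without and 10.2, 13.0 and 9.54 CPM with abemaciclib (-0.41, SE 0.27, adjusted p = 0.252). CDKN1B ranged from 46.9 to 76.6 CPM over the 12 libraries of MDA-MB-453 and from 9.45 to 16.4 CPM over those of MDA-MB-231.

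CDKN1C encodes p57, an imprinted inhibitor (chromosome 11, 2883213-2885775, minus strand), and was low in both lines. MDA-MB-231 libraries ranged from 3.23 to 9.65 CPM, with 6.40, 4.96 and 6.67 CPM under DMSO and 3.69, 4.56 and 8.22 CPM under abemaciclib (log2 fold change -0.12, SE 0.45, adjusted p = 0.865). In MDA-MB-453 its counts were 10, 2 and 7 under DMSO, 1, 0 and 0 under abemaciclib, 1, 8 and 2 under fulvestrant and 2, 0 and 0 under the combination. These libraries did not overlap between DMSO and abemaciclib, as was so for 44.9% of the genes tested in that line. The ratio of the summed counts, 19 against 1, was 19.4, with a 95% counting interval of 3.09 to 808. Tested without the filter on low counts, the log2 fold change was -3.81 and did not pass (adjusted p = 0.0625).

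Under DMSO, 4 of the 5 members that passed the filter on low counts in each line differed between MDA-MB-453 and MDA-MB-231, beside 69.8% of 12750 genes called. Those 12750 also include genes that passed the filter in a single line, so the share is not that of like genes. CDKN2A, CDKN2B and CDKN1C also passed the test, but each entered it only through the line in which it was high and so had to differ. CDKN1B was higher in MDA-MB-453 (66.4 ± 7.62 against 11.8 ± 2.02 CPM, SD, n = 3, log2 fold change 2.55, SE 0.20, adjusted p = 7.62e-16). CDKN3 was higher in MDA-MB-231 (213 ± 6.59 against 56.6 ± 7.24 CPM, log2 fold change -1.84, SE 0.13, adjusted p = 3.65e-17). CDKN2C followed (45.3 ± 2.89 against 19.8 ± 3.10 CPM, -1.13, SE 0.21, adjusted p = 8.44e-06). CDKN1A was also higher in MDA-MB-231 (-0.71, SE 0.26, adjusted p = 0.0149), but missed the threshold without MDA-MB-231 replicate 2 (adjusted p = 0.0829) or without MDA-MB-453 replicate 3 (adjusted p = 0.102). CDKN2D did not pass (0.45, SE 0.24, adjusted p = 0.0916), but passed without MDA-MB-231 replicate 3 (0.77, adjusted p = 0.0106). Over all alternatives the adjusted p ranged from 0.00392 to 0.102 for CDKN1A and from 0.0106 to 0.410 for CDKN2D.

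The abemaciclib response itself was then compared between the lines. Of the 5 members that passed the filter in each line, 3 differed, all with the larger decline in MDA-MB-453, where 20.7% of all genes differed and 13% in that direction. These all-gene shares also cover genes that passed the filter in a single line. The difference in log2 fold change, MDA-MB-453 minus MDA-MB-231, was -4.27 (SE 0.46, adjusted p = 4e-10) for CDKN2C and -2.76 (SE 0.27, adjusted p = 2.77e-11) for CDKN3. It was -1.55 (SE 0.37, adjusted p = 0.00137) for CDKN2D. The abemaciclib libraries of MDA-MB-453 held 0, 4 and 4 counts of CDKN2C and 10, 7 and 15 of CDKN3. The sizes of the differences of both genes are thus not firm. With the combination and fulvestrant libraries in the place of abemaciclib and DMSO, CDKN2C (-2.72, SE 0.45, adjusted p = 8.67e-06) and CDKN3 (-3.24, SE 0.28, adjusted p = 8.69e-13) passed again, while CDKN2D (-0.75, adjusted p = 0.149) did not.

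Fulvestrant alone changed 0 members in either line by edgeR, and DESeq2 also called 0. At an unadjusted p below 0.05 there was 1 in each line, CDKN2C (MDA-MB-231) and CDKN2A (MDA-MB-453). Over all genes, fulvestrant was called for 0% in MDA-MB-231 (0 of 11314, with 799 at an unadjusted p below 0.05) and for 1.41% of those of MDA-MB-453. Adding fulvestrant to abemaciclib changed 0 members by either tool, with 1 at an unadjusted p below 0.05 in MDA-MB-231, CDKN2C, and 0 in MDA-MB-453, where all-gene shares were 0.0265% and 2.46%. The interaction of the drugs was also called for 0 members by either tool, with 1 at an unadjusted p below 0.05 in MDA-MB-231, CDKN2C, and 0 in MDA-MB-453 (all-gene shares 0.124% and 3.8%).

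The combination against DMSO lowered CDKN1A, CDKN2C and CDKN3 in MDA-MB-231 and CDKN2A, CDKN2C, CDKN2D and CDKN3 in MDA-MB-453. Lower genes made up 18.3% and 20% of all genes, and called genes 35.4% and 37.6%. Against fulvestrant it lowered CDKN1A, CDKN2C, CDKN2D and CDKN3 in MDA-MB-231 and the same 4 genes as against DMSO in MDA-MB-453, where 18.5% and 19.4% of all genes were lower and 36.1% and 36.6% were called. Against DMSO the log2 fold changes in MDA-MB-453 were -1.87 for CDKN2A (SE 0.23, adjusted p = 3.88e-09), -4.17 for CDKN2C (SE 0.43, adjusted p = 7.81e-11), -1.22 for CDKN2D (SE 0.24, adjusted p = 5.71e-05) and -4.58 for CDKN3 (SE 0.26, adjusted p = 2.65e-19). In MDA-MB-231 CDKN3 fell by 1.60 on the log2 scale (SE 0.12, adjusted p = 1.67e-14).

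The partners of the inhibitors gave the setting. Of 12 genes of kinases and cyclins, 11 were tested in each line, and abemaciclib lowered 7 (MDA-MB-231) or 9 (MDA-MB-453) and raised 1 in each, with median log2 fold changes of -0.57 and -1.92. Medians over all genes were -0.00053 and -0.0019, and the shares of all genes called were 16.9% and 19.4% lower and 16.9% and 16.6% higher. CCND1, the D-type cyclin that INK4 proteins compete with, was the gene that rose, from 543 to 950 CPM in MDA-MB-231 (log2 fold change 0.81, SE 0.08, adjusted p = 2.27e-10) and from 560 to 762 CPM in MDA-MB-453 (0.53, SE 0.08, adjusted p = 2.57e-07). CCNA2, a partner of CDK2, fell in MDA-MB-231 (-1.58, SE 0.15) and more so in fitted size in MDA-MB-453 (-6.30, SE 0.39), as did CDK1 (-0.85, SE 0.12, and -5.09, SE 0.26), and CCNE2 went from 27.6 to 11.6 CPM in the first and from 15.2 to 0.1 CPM in the second. CDK4, a target of the drug, was not called in MDA-MB-231 (-0.15, SE 0.10, adjusted p = 0.266) and fell in MDA-MB-453 (-0.26, SE 0.10, adjusted p = 0.0396). CDK6 did not pass in either line, but its DMSO level was 165 CPM in the former line and 6.38 CPM in the latter.

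Of 14 genes for the ubiquitin ligases that remove CIP/KIP proteins, all tested, 6 fell in each line, 0 rose and 8 were not called, with medians of -0.44 and -0.24 (all-gene shares of lower calls 16.9% and 19.4%). SKP2, the receptor that marks p27 for destruction, fell from 80.1 to 26.9 CPM in MDA-MB-231 (-1.57, SE 0.18, adjusted p = 2.06e-09) and from 21.9 to 10.4 CPM in MDA-MB-453 (-1.0, SE 0.26, adjusted p = 0.00209), where the mRNA of CDKN1B itself was not called. Its cofactor CKS1B fell too (-0.66, SE 0.10, adjusted p = 8.15e-07, and -1.41, SE 0.10, adjusted p = 4.59e-16), and DTL, which directs p21 to degradation, fell by 5.54 on the log2 scale in MDA-MB-453 (SE 0.29).

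**Figure D4:**
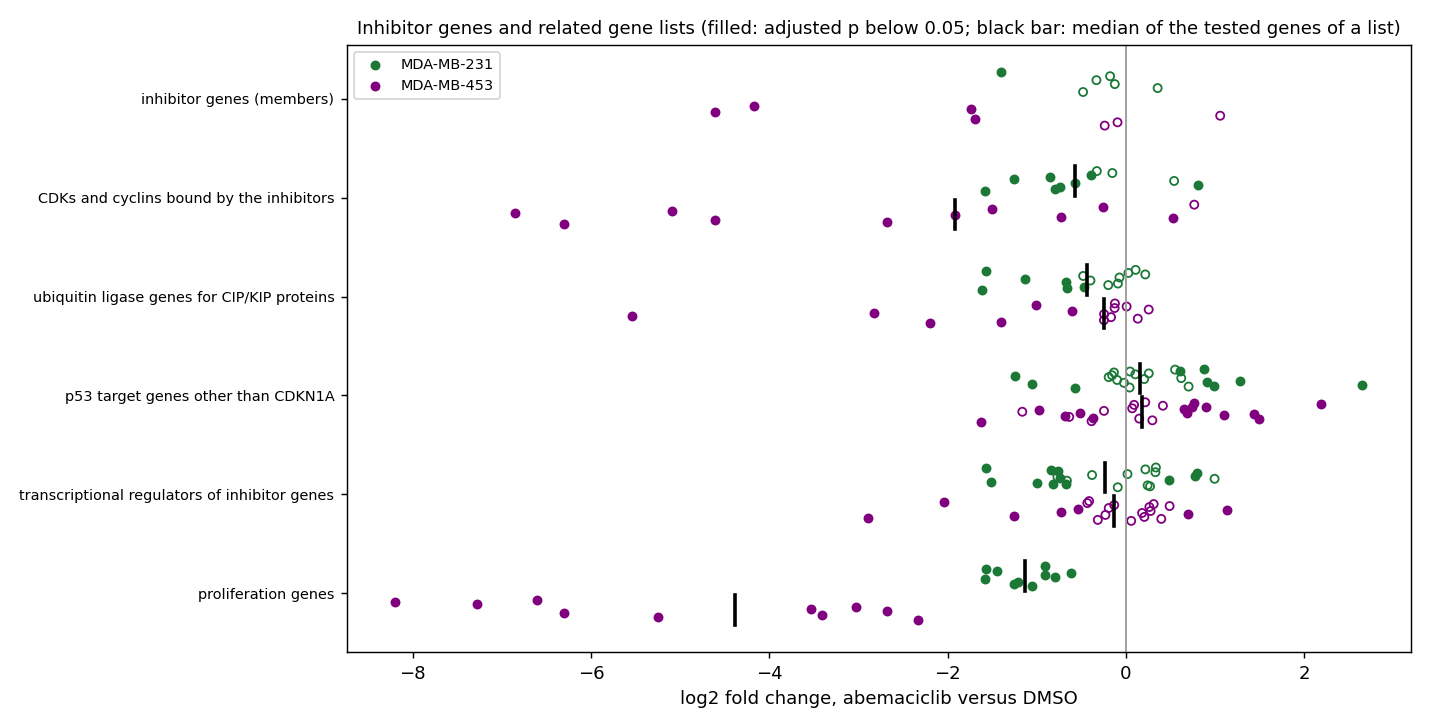
Log2 fold change with abemaciclib against DMSO (x axis) of the inhibitor genes and of the tested genes of related lists (y axis), by line. Points are genes, filled where the adjusted p was below 0.05, and black bars are list medians, which for proliferation genes are -1.13 (MDA-MB-231) and -4.39 (MDA-MB-453).

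Other p53 targets were called in both directions, beside all-gene shares called of 33.7% in the first line and 36% in the second. In MDA-MB-231, 6 of 22 tested rose and 3 fell (median 0.16), and in MDA-MB-453 9 of 24 rose and 5 fell (median 0.18). GDF15 rose in both lines (1.29, SE 0.39, and 1.44, SE 0.13), as did CD82 in MDA-MB-231 (2.65, SE 0.50) and TP53INP1 in MDA-MB-453 (2.19, SE 0.22), whereas PPM1D (-1.24, SE 0.35, and -0.97, SE 0.32) and AEN (-0.57, SE 0.15, and -1.62, SE 0.26) fell in both. CDKN1A, a member of the same class, was not among the genes called. MDM2 was not called in MDA-MB-231 (-0.10, SE 0.16, adjusted p = 0.696) and fell in MDA-MB-453 (-0.51, SE 0.16, adjusted p = 0.00902).

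Of 22 transcription regulators of these genes, 3 rose and 8 fell in MDA-MB-231 (22 tested, median -0.23), and 2 rose and 5 fell in MDA-MB-453 (21 tested, median -0.13), counts close to the same all-gene shares in MDA-MB-453. EZH2, the Polycomb methyltransferase that silences CDKN2A in many cells, fell in both lines (-1.52, SE 0.16, and -1.25, SE 0.22), and so did E2F1 (-0.82, SE 0.18, and -2.89, SE 0.16). KLF6 (0.77, SE 0.13, and 1.13, SE 0.13) and FOXO3 (0.48, SE 0.17, and 0.70, SE 0.13), both known activators of CIP/KIP genes, rose in both. RB1, the end point of the pathway, was expressed in both lines at 53.02 and 59.8 CPM under DMSO, and fell with abemaciclib in MDA-MB-453 (-0.53, SE 0.15, adjusted p = 0.00461) but was not called in MDA-MB-231 (-0.38, SE 0.16, adjusted p = 0.0646). All 10 proliferation genes fell in each line, MKI67 from 516 to 189 CPM in MDA-MB-231 and from 276 to 1.63 CPM in MDA-MB-453, and their part in the change of the inhibitor genes was not tested. Of the 9 listed neighbours in 9p21, 2 were tested in MDA-MB-231, of which 1 rose, MLLT3 (0.86, SE 0.27, adjusted p = 0.00995), and 6 in MDA-MB-453, of which 1 fell, ELAVL2 (-1.58, SE 0.58, adjusted p = 0.0298). The same lists in the combination against fulvestrant gave 1 gene higher and 8 lower for kinases and cyclins in each line, and 10 of 10 proliferation genes lower.

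Genes most like each member were sought by Pearson's r of log2 CPM over the 12 libraries of a line, among 11313 (MDA-MB-231) or 11079 (MDA-MB-453) other genes, as a description. Libraries with and without abemaciclib form separate sets, so a high r follows from any shared step between them. In MDA-MB-453 CDKN3 was nearest to MCM3 (r = 0.995), MKI67 (0.994) and MCM2 (0.993), and CDKN2C to CCNB1 (0.988), CDC25C (0.987) and HNRNPD (0.986). CDKN2D was nearest to BTG3 (0.977), FEN1 (0.975) and NRM (0.972), and CDKN2A, with its smaller decline, to ACTB (0.986), CCT6A (0.985) and RPL35 (0.980). MCM2 and MCM3 encode subunits of the replicative helicase and CCNB1 a mitotic cyclin. In MDA-MB-231 CDKN3 was nearest to ADRM1 (0.993), SKA2 (0.992) and SNRPD1 (0.991), CDKN2C to MAP7D1 (0.956), RPL18 (0.952) and PRELID1 (0.944), and CDKN1A to MALSU1 (0.95), SLC25A11 (0.945) and NCLN (0.942). The best match was weaker for CDKN2D (RHOG, 0.899), CDKN1B (PAN3, 0.881) and CDKN1C (RNY1, 0.821) in MDA-MB-231, and for CDKN1A (ZNF343, 0.898) and CDKN1B (EGR1, 0.848) in MDA-MB-453. Abemaciclib against DMSO was not called for these genes. Nor was it for CDKN2C and CDKN1A in MDA-MB-231, whose best matches reached 0.956 and 0.95.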

How the data were processed

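Both lines were profiled by 3′ RNA-seq (QuantSeq FWD, single-end 100 bp reads). The deposited values are raw counts per gene: adapter trimming by the authors used BBDuk, alignment to hg38 used STAR, and reads per GENCODE gene were counted by featureCounts. The strand setting of the counting is not given in the sources used here. 3′ counting reads transcript ends and does not separate isoforms. Groups came from the sample labels. Positions are of GENCODE v44, promoters of RefSeq (GRCh38.p14).

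The main test was edgeR 4.0.16 in R 4.3.3 (filterByExpr with a count minimum of 10, TMM, glmQLFit, glmQLFTest, 2-sided, Benjamini-Hochberg over all genes tested, threshold 0.05), fitted within the 12 libraries of a line, and over all 24 libraries for contrasts between lines. The study used DESeq2, which was run as an alternative (1.42.0). The SE of a log2 fold change is its size over the square root of F. Ratios of summed counts have exact binomial intervals. Replicates of a group differed beyond counting noise. Statistics were tested on simulated data. All members are named; of each list, at most 3 called genes in each direction and line, and genes acting directly on a member. The members and lists were chosen with earlier results of these data known. Alternatives are in the closing section.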

Additional observations from a re-analysis of the deposited data

Results flagged for a closer look

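For 3 inhibitor genes that passed the filter on low counts in each line, the change with abemaciclib against DMSO differed between MDA-MB-453 and MDA-MB-231 by a test of the difference itself in the model of 24 libraries. In log2 units, MDA-MB-453 minus MDA-MB-231, it was -4.27 for CDKN2C (adjusted p = 4e-10, edgeR), -2.76 for CDKN3 (adjusted p = 2.77e-11) and -1.55 for CDKN2D (adjusted p = 0.00137). The sizes for CDKN2C and CDKN3 are not firm, since the abemaciclib libraries of MDA-MB-453 held few counts of them. For CDKN1C the same model gave -3.67, a value that is not support for a difference: the gene entered the model only through MDA-MB-231, where it is higher, and had 1 count in the abemaciclib libraries of MDA-MB-453.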

How the results depend on the processing

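Of 92 tested member values, 31 were called, none of the 31 reversed, and 24 kept direction and call under every alternative run (DESeq2, other scalings, no filter on low counts, other sets of libraries, a replicate block, and each library left out in turn). The 31 include CDKN2A, CDKN2B and CDKN1C between the lines under DMSO and CDKN1C in the line difference of the abemaciclib response. Those calls are not support, for the reasons given above. Leaving out 1 library moved the number of members called with abemaciclib in MDA-MB-231 from 1 to between 1 and 2, and that for the interaction there from 0 to between 0 and 1. Signs that turned on leaving out 1 library, all in values not called, had these ranges of log2 fold change. In MDA-MB-453 they were CDKN1A with abemaciclib -0.47 to 0.037 and with the combination against DMSO -0.021 to 0.39, CDKN1B against DMSO -0.22 to 0.11 and against abemaciclib -0.12 to 0.20, CDKN2B with fulvestrant -0.15 to 1.00, with the combination against abemaciclib -0.11 to 0.94 and in the interaction -0.55 to 0.78, and CDKN2C against abemaciclib -0.21 to 0.91 and in the interaction -0.013 to 1.10. In MDA-MB-231 they were CDKN1C with abemaciclib -0.54 to 0.093 and with fulvestrant -0.34 to 0.28, CDKN2D -0.38 to 0.16 and -0.14 to 0.45, and CDKN3 in the interaction -0.23 to 0.00036. The line difference of CDKN1A spanned -0.0498 to 0.48. With combination and fulvestrant libraries in place of abemaciclib and DMSO, a choice made after seeing the data, the line difference of CDKN1B turned from -0.44 to 0.60 (neither called). Replicate numbers did not pair the libraries (0 of 18 same-numbered pairs in each line correlated above 0.1), and the replicate block lost 1 call, CDKN2D in MDA-MB-231 for the combination against fulvestrant (-0.61, adjusted p = 0.0616); the cause was not tested. CDKN1C and CDKN2B had few counts in MDA-MB-453 (33 and 77 over 12 libraries).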
